A study of Mus musculus with 9 samples.

Results

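Secreted Wnt antagonists and Wnt ligands were followed in ribosome-bound RNA of mouse fat. The set held 10 genes, Sfrp1, Sfrp2, Sfrp4, Sfrp5, Frzb, Dkk2, Dkk3, Wisp2, Wnt10b and Wnt11, chosen by symbol from the 22527 symbols of the deposited table. Each was found on 1 line. The study profiled brown fat (BAT), white fat of the groin (inguinal, iWAT), which lies under the skin, and epididymal white fat (eWAT), which lies in the abdomen, from C57BL/6 mice aged 8 weeks, with 3 libraries per depot and 9 in all. The mice are listed as wild type and no treatment is named. Ribosomes were pulled down from tissue homogenates with an antibody against GFP. The series title speaks of adipocytes and the table's name of adiponectin, an adipocyte hormone, but the labels do not say which cells carried a GFP tag, nor whether replicates are separate animals. P-values therefore measure the spread between these samples, which may be technical. The values are FPKM (fragment numbers relative to transcript length and to the mapped reads of a library), a scale on which levels of genes can be compared per length.

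Wnt proteins are secreted, lipid-modified ligands that bind Frizzled receptors and the co-receptors Lrp5 and Lrp6. In the canonical branch this stabilises beta-catenin, which acts with TCF/LEF factors on target genes. Canonical Wnt signalling in precursor cells is known to hold back fat cell formation. Secreted antagonists work outside the cell: frizzled-related proteins (Sfrp1 to Sfrp5 and Frzb) bear a Frizzled-like domain that binds Wnt, and Dickkopf proteins (Dkk) bind Lrp co-receptors. In fat, several of these genes are known from stromal precursor cells as well as from adipocytes.

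The libraries differed in depth, in ways that run with depot. Read totals were estimated from low values, where levels fall on multiples of what 1 read is worth. They were 11.4 to 20.8 M reads in BAT and 2.87 to 4.69 M in iWAT, and for eWAT 1, 2 and 3 they were 16.7, 4.57 and 4.58 M. Every BAT library was thus deeper than every iWAT library, and eWAT 1 was as deep as BAT. For BAT 3, the title and source give brown fat but the tissue field gives inguinal fat. Ucp1, the brown adipocyte proton carrier, was at 2626, 2434 and 3054 FPKM in BAT 1, 2 and 3 and at most at 3.38 FPKM in the white libraries, and BAT 3 was kept in BAT. The adipocyte gene Adipoq was at 789 to 1125 FPKM in BAT and 1856 to 2932 in eWAT. In iWAT 1, 2 and 3 it was at 2169, 456 and 771 FPKM. Plin1, another adipocyte marker, was at 302.5, 89.1 and 105 FPKM there, against 407 to 459 in BAT. Of 6 adipocyte markers tested, 2 were higher in BAT than in iWAT, where 34.5% of all tested genes were, and 4 were not called. Each of the 6 was higher in iWAT 1 than in iWAT 2 and 3. The library iWAT 1 correlated more closely with eWAT 1, 2 and 3 (Pearson r of 0.945, 0.963 and 0.962 across genes) than with iWAT 2 and 3 (0.899 and 0.934).

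Most of these transcripts were near or below detection. In 7 of the 10 genes no library reached 1 FPKM, and the highest value among those 7 was 0.658 FPKM. Of their 63 values, 37 were listed at 0, and none of the rest equalled more than about 4.78 reads. For comparison, 47.3% of all symbols in the table stayed under 1 FPKM in each library. A listed 0 may be a failed estimate. Sfrp1, Sfrp5 and Wnt11 were the 3 genes that reached 1 FPKM in any library, and Sfrp1 and Sfrp5 did so in at least 3 libraries, the condition for a test.

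**Figure D1:**
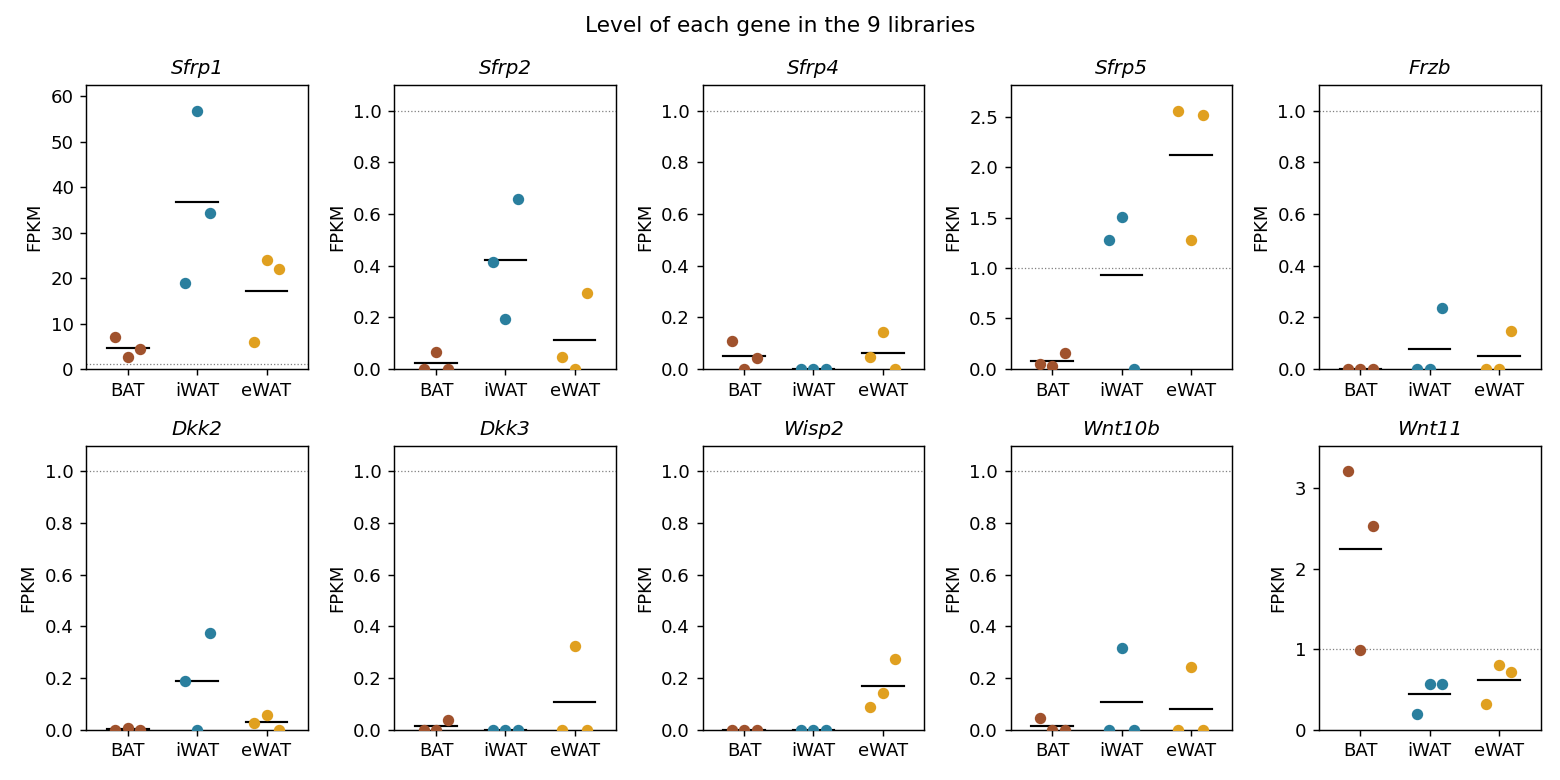
FPKM of the 10 genes in each depot (linear axes, scaled per gene), with 1 point per library in the order 1, 2, 3 from left to right and a bar at the group mean; the dotted line marks 1 FPKM. Sfrp1 is highest in iWAT, Sfrp5 lies at 0.153 FPKM or less in BAT, Wnt11 is highest in BAT, and the other panels stay under 1 FPKM.

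Sequence upstream of the transcription start is shown for Sfrp5 and Wnt11, the genes that reached 1 FPKM and have sequence in the RefSeq promoter table (build GRCm38.p6). That table held 6 of the 10 genes in 7 windows. Each run gives the 250 bases before the start, 5′ to 3′ on the gene's strand, for Wnt11 at the first of its 2 listed starts. Capitals mark the core CTTTGA, to which TCF/LEF factors bind, and the promoter element TATAAA, the TATA box. Both strands were searched, and a core on the other strand shows as TCAAAG.
Sfrp5 (chr19:42202253-42202502, minus strand): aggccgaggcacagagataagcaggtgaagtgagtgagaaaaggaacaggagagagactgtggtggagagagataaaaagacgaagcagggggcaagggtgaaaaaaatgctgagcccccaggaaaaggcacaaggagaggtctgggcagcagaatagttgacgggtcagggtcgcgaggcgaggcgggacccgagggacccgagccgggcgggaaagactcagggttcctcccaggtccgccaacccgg
Wnt11 (chr7:98834862-98835111, plus strand): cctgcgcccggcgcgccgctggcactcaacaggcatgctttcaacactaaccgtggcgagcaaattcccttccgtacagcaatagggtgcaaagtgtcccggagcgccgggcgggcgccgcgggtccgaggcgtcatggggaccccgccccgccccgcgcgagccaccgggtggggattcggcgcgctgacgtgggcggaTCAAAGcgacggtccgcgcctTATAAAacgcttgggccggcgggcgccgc
The printed Wnt11 window held 1 TCF/LEF core, starting at -50 from the transcription start, and 1 TATA box at -29, and the motifs did not overlap. The window at the second listed start of Wnt11 held neither motif. The Sfrp5 window held neither sequence of letters. Among 32851 promoter windows of the same length, 13.8% held the TCF/LEF core and 12.4% the TATA box. The printed Wnt11 window had 37 CpG pairs, that of its second start 16 and that of Sfrp5 13, against a median of 6 over all windows. A match describes the letters and does not show a bound factor.

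Sfrp1 was the most abundant of the 10 genes in every depot. It encodes secreted frizzled-related protein 1, a Wnt-binding antagonist that has been studied in fat cell formation, and lies on chromosome 8 (24521974 to 24560104, plus strand, protein-coding, mm9). Its level was 7.13, 2.53 and 4.36 FPKM in BAT 1, 2 and 3. In iWAT it was 18.9, 56.9 and 34.4 FPKM, and in eWAT 5.86, 23.9 and 21.9 FPKM. All 3 iWAT libraries stood above all BAT libraries, while eWAT 1 fell inside the BAT range and eWAT 2 and 3 above it. The means were 4.68 ± 2.32 in BAT, 36.7 ± 19.1 in iWAT and 17.2 ± 9.90 FPKM in eWAT (SD, n = 3). By its mean, Sfrp1 exceeded 92.8% of all symbols in iWAT, 87.0% in eWAT and 73.8% in BAT.

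Sfrp1 was lower in BAT than in iWAT, with a difference of -2.68 on the log2(FPKM + 1) scale, which understates changes of low genes (SE 0.54, limma adjusted p = 0.00248). Against eWAT the difference was -1.56 (SE 0.54, limma adjusted p = 0.0488). This second call ended without BAT 1, BAT 2, BAT 3, iWAT 3, eWAT 2 or eWAT 3, with adjusted p from 0.0502 to 0.168 in limma, and also with a pseudocount of 0.1 (0.0507) or no filter (0.115). Between iWAT and eWAT the difference was 1.13 (SE 0.54, limma adjusted p = 0.213), within the spread of the libraries. Set against eWAT 1 alone among the eWAT libraries, which matches BAT in depth, the difference of BAT was -0.36 (limma adjusted p = 0.798), a fit in which eWAT 1 is assumed to vary like the other groups and which was chosen after seeing the data. In RNA pulled down from tissue homogenates, fewer cells of a type, less RNA per cell and uneven pull-downs cannot be told apart.

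Sfrp1 moved with epithelial and skin markers, and with genes of other kinds, from library to library. The basal keratin Krt5 measured 19.9, 10.3 and 15.8 FPKM in BAT 1, 2 and 3. Its iWAT levels were 68.3, 188 and 127 FPKM, and its eWAT levels 29.3, 87.3 and 79.7. The ratio of Sfrp1 to Krt5 stayed between 0.200 and 0.358 in all 9 libraries, although Sfrp1 itself spanned 2.53 to 56.9 FPKM. The 3 tested genes of at least 5 FPKM on average with the pattern most like Sfrp1 were Arl4c (Pearson r = 0.9995 over the 9 libraries), Esrp1, a splicing regulator of epithelial cells (0.9991), and 2310021P13Rik (0.9991). These were the highest of 5930 genes compared, and the libraries share their depth differences. The ratio of Sfrp1 to Esrp1 ran from 0.874 to 1.04. Its ratio to Ctgf, a matrix-associated gene of the CCN family, ran from 1.46 to 1.98. That to Acta1, the actin of skeletal muscle, ran from 0.0261 to 0.0482. Ctgf and Acta1 were chosen after their values were seen. The other muscle markers, Ckm, Tnnc2 and Myh4, were highest in iWAT 1, where Sfrp1 was lowest among the iWAT libraries. Ckm was at 0.120 FPKM or less in BAT, at 94.0, 25.3 and 39.5 in iWAT 1, 2 and 3, and at 0.0802 in eWAT 1. Summed over the 7 epithelial and skin markers, the level was 23.3 to 48.3 FPKM in BAT, 160 to 437 in iWAT, and 62.5, 216 and 190 in eWAT 1, 2 and 3. Of these 7, 4 were tested. BAT was lower than iWAT in all 4, beside 22.9% of all tested genes, and lower than eWAT in 3, beside 13.5%. Krt8, among the 4, reached 1 FPKM in white libraries alone. The adhesion gene Epcam was listed at 0 in 7 libraries and the keratin Krt18 in 6. The estimated read number of Sfrp1 was 220 to 338 in BAT, 370 to 818 in iWAT and 409 to 456 in eWAT, a much narrower span than its FPKM. The part of epithelial RNA, muscle RNA and depth in the Sfrp1 differences was not tested; between BAT and iWAT, depth and depot cannot be told apart.

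**Figure D2:**
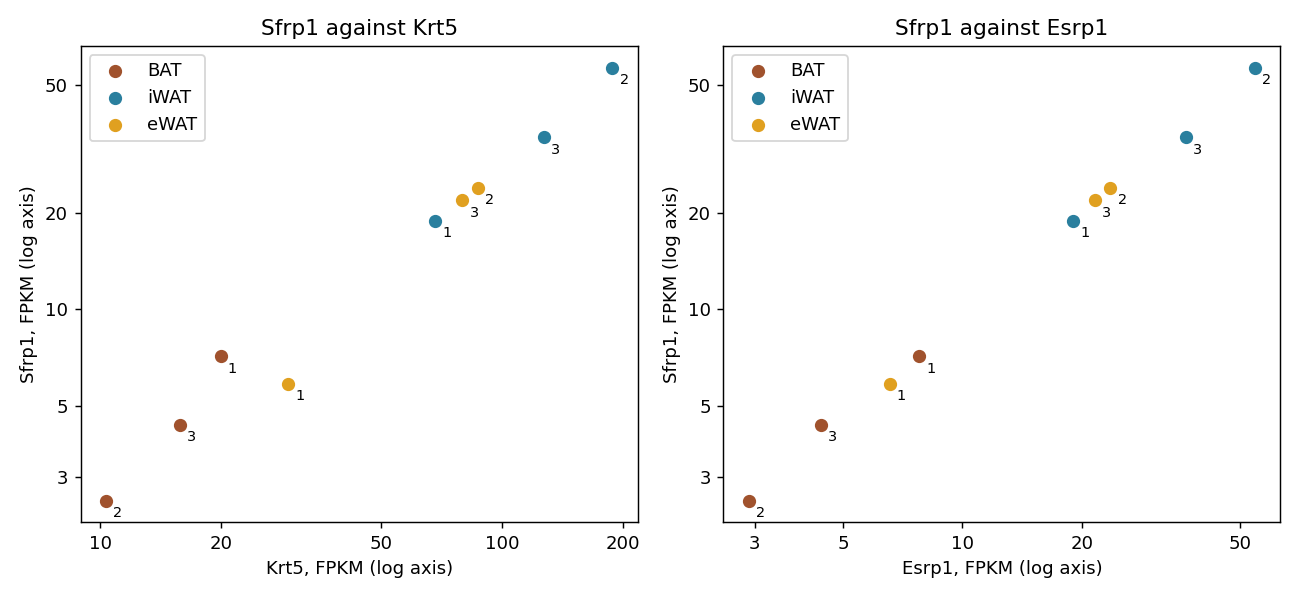
Sfrp1 against the keratin Krt5 (left) and against Esrp1 (right), FPKM on log axes, 1 point per library with its replicate number. All 9 libraries lie near 1 line, with eWAT 1 beside the BAT libraries and the ratio of Sfrp1 to Krt5 between 0.200 and 0.358.

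Sfrp5 was lower in BAT than in eWAT. Its product is known as a secreted factor of white adipocytes, and the gene lies on chromosome 19 (42272461 to 42276742, minus strand, protein-coding, mm9). Levels were 0.0514, 0.0290 and 0.153 FPKM in BAT 1, 2 and 3. In iWAT they were 1.28, 1.5 and 0, and in eWAT 2.56, 1.28 and 2.52 FPKM. Each eWAT library was above each BAT library, and iWAT spanned both because iWAT 3 was listed at 0. In estimated reads the BAT values equal 0.99, 1.03 and 4.05 reads, those of iWAT 10.2, 8.82 and 0, and those of eWAT 72.8, 9.94 and 19.6. Except in eWAT 1, the white values thus rest on fewer than 20 reads.

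The difference of Sfrp5 between BAT and eWAT was -1.51 on the log2 scale (SE 0.33, limma adjusted p = 0.00629), with means of 0.0778 ± 0.0660 and 2.12 ± 0.727 FPKM (SD, n = 3). With eWAT 1 as the only eWAT library, a fit chosen after seeing the data, the difference was -1.73. Here the deep eWAT library held the highest value of all 9, unlike for Sfrp1. Against iWAT, at 0.929 ± 0.812 FPKM, the difference was -0.73 (SE 0.33, limma adjusted p = 0.0826). Without iWAT 3, the library listed at 0, it was -1.15 (limma adjusted p = 0.00635). The difference between iWAT and eWAT was -0.77 (SE 0.33, limma adjusted p = 0.182, unadjusted 0.0425). Sfrp5 reached 1 FPKM in 5 white libraries and in none of BAT, so it passed the filter through the depots where it was high. The genes most like Sfrp5 over the 9 libraries were Smad5 (Pearson r = 0.947), Hdac1 (0.939) and Bre (0.929).

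The other frizzled-related genes were at trace levels. Sfrp2 (chromosome 3), an antagonist made by many stromal cells, was at 0.415, 0.194 and 0.658 FPKM in iWAT 1, 2 and 3. In BAT it was at 0, 0.0645 and 0, and in eWAT at 0.0451, 0 and 0.295 FPKM. The iWAT libraries lay above the BAT libraries, but the iWAT values equal 3.5, 1.2 and 3.41 estimated reads. Sfrp4 (chromosome 13) was listed at 0 in all iWAT libraries and reached 0.141 FPKM in eWAT 2 and 0.109 in BAT 1. Frzb (chromosome 2), also known as a frizzled-related protein of cartilage, was above 0 in iWAT 3 (0.237 FPKM) and eWAT 3 (0.148 FPKM) alone.

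The Dickkopf genes and Wisp2 were at trace levels too. Dkk2 (chromosome 3), which binds Lrp co-receptors and can block or promote signalling, was highest in iWAT 3 at 0.376 and iWAT 1 at 0.190 FPKM. It was at 0.0055 FPKM or less in BAT. Dkk3 (chromosome 7), a divergent family member whose role in Wnt signalling is unsettled, was above 0 in eWAT 2 (0.324 FPKM) and BAT 3 (0.0372 FPKM) alone. Wisp2 (chromosome 2), a secreted protein of the CCN family known from fat precursor cells, was at 0.0888, 0.140 and 0.276 FPKM in eWAT 1, 2 and 3. It was listed at 0 in all 6 BAT and iWAT libraries. The eWAT values of Wisp2 equal 2.26, 0.97 and 1.92 estimated reads, so that the depots are separated by a few reads.

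Markers of stromal precursors, a known source of several of these genes, differed among themselves. Of the 8 stromal genes 4 were tested, with 3 lower in BAT than in iWAT and 2 lower than in eWAT. Of all tested genes, 22.9% and 13.5% were lower in these comparisons. The untested ones were low, with Pdgfra at no more than 0.806 FPKM, Pi16 at 0.859, Dpp4 at 0.263 and Cd34 at 1.24. The matrix gene Dcn measured 97.0, 25 and 39.5 FPKM in eWAT 1, 2 and 3 and no more than 5.34 in another library. The surface marker Ly6a measured 16.2 to 20.8 FPKM in iWAT and no more than 4.06 elsewhere, and the collagen gene Col1a1 reached 7.06. Dpt, a matrix protein gene, measured 339, 75.4 and 204 FPKM in iWAT 1, 2 and 3 against 1.58 to 13.2 FPKM in BAT. The summed stromal level was 7.55 to 19.0 FPKM in BAT, 104 to 368 in iWAT and 65.4 to 167 in eWAT, highest there in eWAT 1. Skeletal muscle markers summed to 59.7 to 148 FPKM in BAT, 1084 to 1468 in iWAT and 226 to 803 in eWAT. Acta1 made up most of this sum in every library. In BAT, Ckm, Tnnc2 and Myh4 were at no more than 0.120, 1.13 and 0.107 FPKM. In eWAT 1 Acta1 was at 225 FPKM, with Ckm at 0.0802, Tnnc2 at 0.893 and Myh4 at 0.0412. Smooth muscle markers summed to at most 20.8 and mesothelial ones to at most 4.68 in any library. Endothelial, macrophage and Schwann cell markers had no gene at 1 FPKM in 3 libraries. The part of stromal RNA in the levels of Sfrp2 or Dkk2 was not tested.

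Wnt11 was highest in BAT. It encodes a Wnt that signals largely without beta-catenin, and lies on chromosome 7 (105983622 to 106003705, plus strand, protein-coding, mm9), with the promoter printed above. Its level was 3.21, 0.991 and 2.53 FPKM in BAT 1, 2 and 3, and in iWAT it was 0.199, 0.573 and 0.566 FPKM. In eWAT the values were 0.325, 0.807 and 0.711 FPKM. Every BAT library was above every white library, although BAT 2 exceeded eWAT 2 by little. The means were 2.24 ± 1.14 in BAT, 0.446 ± 0.214 in iWAT and 0.614 ± 0.255 FPKM in eWAT (SD, n = 3). Estimated reads were 67.1 to 128 in BAT, 3.03 to 6.43 in iWAT, and 17.7, 12 and 10.6 in eWAT.

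Wnt11 missed the filter, since 2 libraries reached 1 FPKM, and so had no test among the 10374 genes. In the alternative without a filter, over 19409 genes, BAT exceeded iWAT by 1.11 on the log2 scale (SE 0.29, limma adjusted p = 0.0219), where 29% of all genes were called. Against eWAT the difference was 0.95 (SE 0.29, limma adjusted p = 0.0606), with 15.7% of genes called. Between iWAT and eWAT it was -0.16 (SE 0.29, limma adjusted p = 0.777), with 0.479% called. eWAT 1, as deep as BAT, was at 0.325 FPKM, the second lowest value of the 9.

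Wnt10b (chromosome 15), the canonical ligand known for blocking fat cell formation, was listed at 0 in 6 libraries. It was at 0.316 FPKM in iWAT 2, 0.242 in eWAT 2 and 0.045 in BAT 1, equal to 2.21, 2.24 and 1.03 estimated reads. No order of the depots can be read from these values.

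**Figure D3:**
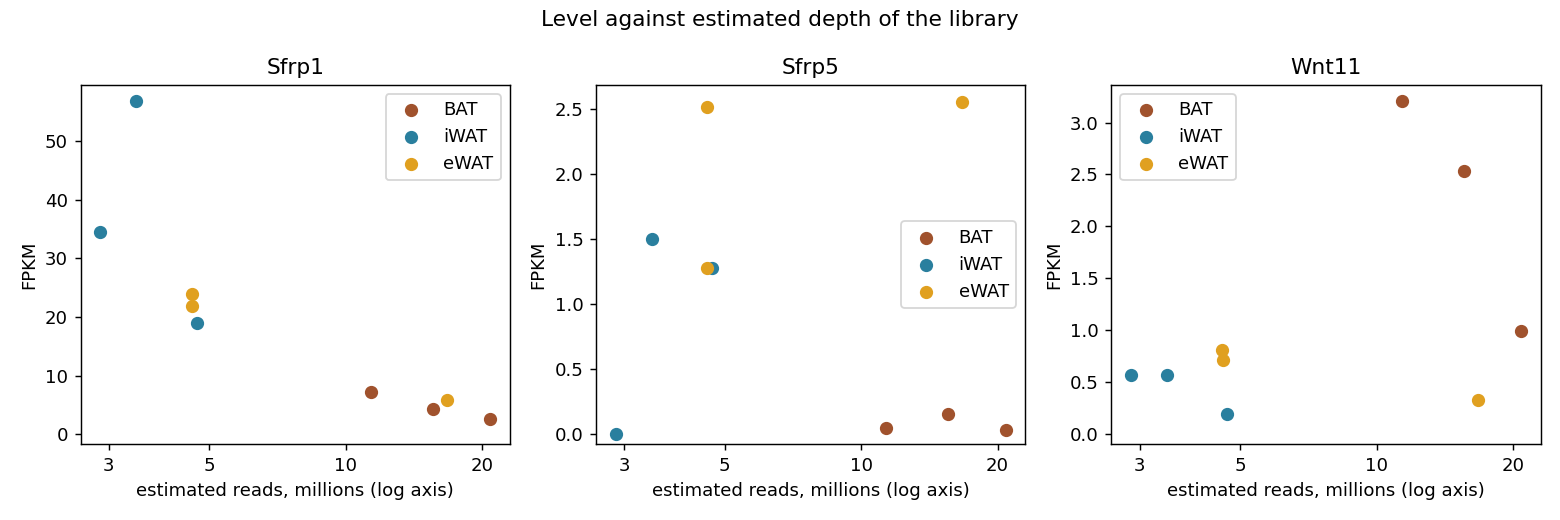
FPKM of Sfrp1, Sfrp5 and Wnt11 (linear axes) against the estimated reads of the library in units of M reads (log axis), 1 point per library. Sfrp1 is at 7.13 FPKM or less in the 4 libraries above 10 M reads, whereas Sfrp5 has its highest value, 2.56 FPKM, in eWAT 1, and Wnt11 is high in BAT and at 0.325 FPKM in eWAT 1.

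By comparison, Sfrp1 passed the test between BAT and iWAT, 1 of the 2 genes tested, where 57.5% of all 10374 tested genes were called. Between BAT and eWAT both Sfrp1 and Sfrp5 passed, where 33.7% were called. Neither passed between iWAT and eWAT (limma), where 1.74% were called; Sfrp5 was the 1 gene there with an unadjusted p under 0.05. Calls lower in BAT made up 22.9% of tested genes against iWAT and 13.5% against eWAT, and calls higher in BAT 34.5% and 20.2%. The balance against eWAT depended on eWAT 1: 2094 genes were higher and 1398 lower in BAT, but 1918 and 2243 without eWAT 1. Without BAT 1, BAT 2, BAT 3, eWAT 2 or eWAT 3, calls fell in both directions and the higher ones stayed more numerous. In that order the higher calls numbered 1522, 1558, 1551, 1627 and 1690, and the lower calls 975, 824, 806, 873 and 840. Between iWAT and eWAT 0.231% were higher and 1.5% lower in iWAT. The libraries of BAT and iWAT were fully separated for 65.7% of tested genes, as for Sfrp1, those of BAT and eWAT for 54.6%, as for Sfrp5, and those of iWAT and eWAT for 22.7%. The median of all tested genes was 0.23 log2 units higher in BAT than in iWAT, -0.02 against eWAT, and -0.18 for iWAT against eWAT. The BAT comparisons share the BAT libraries, so they are not independent.

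Other Wnt ligands were as scarce as the 10 genes. Of all 19 Wnt ligands, 2 reached 1 FPKM in at least 3 libraries and 13 did not reach it in any. Of 15 secreted antagonists of the frizzled-related, Dickkopf and other families, 2 (Sfrp1 and Sfrp5) did so and 13 stayed below, among them Dkk1, Wif1 and Notum. The ligands that passed were Wnt5a and Wnt7b. Wnt5a, the prototype of beta-catenin-independent signalling, measured 2.04 to 2.55 FPKM in the BAT libraries and 1.6 to 2.06 in eWAT, and iWAT 1, 2 and 3 gave 2.19, 0.235 and 0.897. Its difference between BAT and iWAT was 0.76 (SE 0.31, limma adjusted p = 0.0535), and without iWAT 1 it passed (adjusted p = 0.00274). With the replicate block it passed as well (adjusted p = 0.0396, limma). Wnt7b, a ligand of epithelia, measured 0.363, 0.0264 and 0.278 FPKM in BAT against 1.13, 1.52 and 2.70 in iWAT (log2 scale: -1.16, SE 0.25, limma adjusted p = 0.00364), with eWAT between them at 0.501, 1.25 and 0.869.

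**Figure D4:**
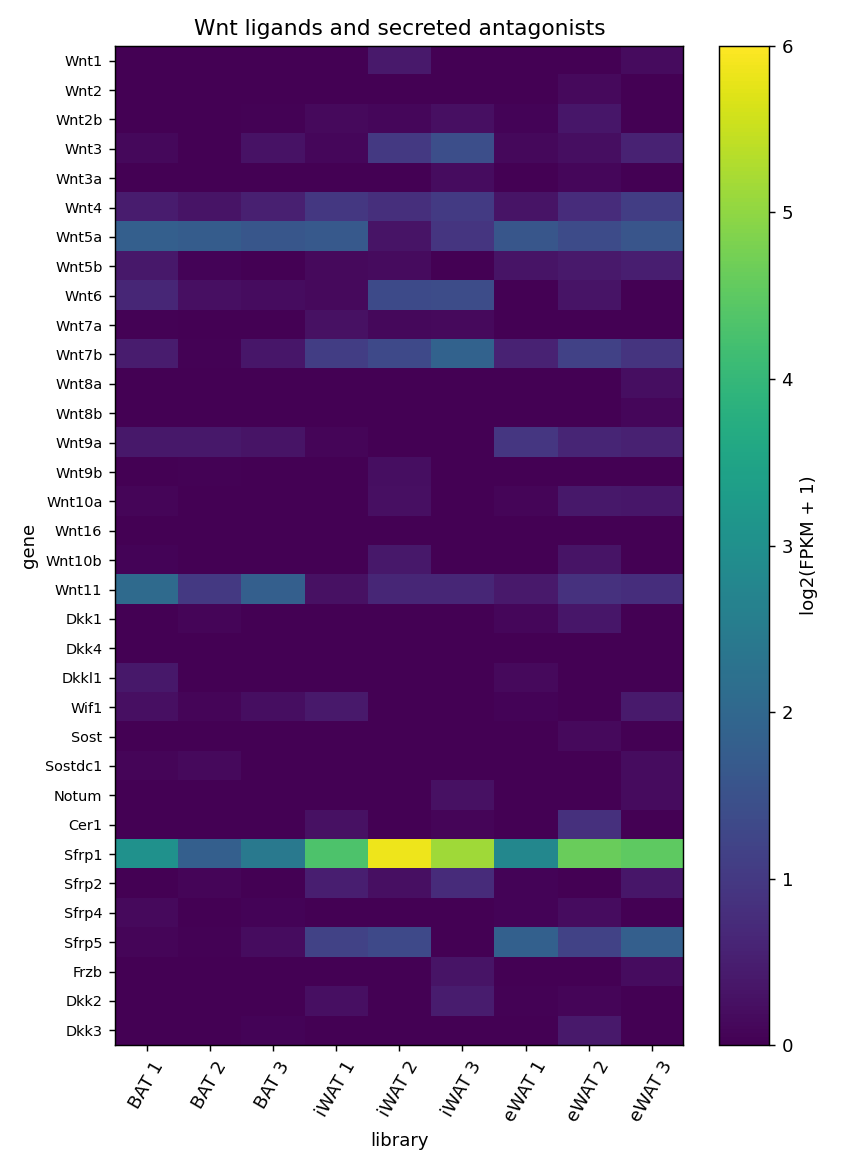
Level of 19 Wnt ligands and 15 secreted antagonists (rows) in the 9 libraries (columns), coloured by log2(FPKM + 1). Sfrp1 is the brightest row, Wnt11 is brighter in BAT, Sfrp5 is brighter in eWAT and in iWAT 1 and 2, and most rows stay dark.

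Outside the 10 genes, 95 genes of the pathway were listed, the other ligands and antagonists among them, and 48 of the 95 were tested. Against iWAT, 23 of the 48 were lower in BAT and 4 were higher, where 22.9% and 34.5% of all tested genes were. Against eWAT 10 were lower and 2 higher, where 13.5% and 20.2% of all tested genes were. Between iWAT and eWAT 2 were lower in iWAT, where 1.5% of all tested genes were. Genes of ligand processing and secretion were lower in BAT than in iWAT. Porcn, whose product adds the lipid to Wnt, differed by -1.62 (SE 0.46). Wls, the carrier that brings Wnt to the surface, differed by -1.28 (SE 0.38). Both calls ended without BAT 2 (limma adjusted p = 0.0512 for Porcn), and that of Wls also without iWAT 2.

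Among 12 tested receptors, 1 was higher and 2 were lower in BAT than in iWAT, where 34.5% and 22.9% of all tested genes were. Their median log2 difference was -0.08. The pseudokinase Ptk7 differed by -1.96 and Fzd2 by -1.13, and Fzd2 lost its call without BAT 2, iWAT 2 or iWAT 3. Fzd2 and Fzd5, like Wnt7b, reached 1 FPKM in white libraries alone. Fzd5 was lower in BAT than in eWAT by -0.92, a call that ended when eWAT 1 stood alone. Fzd4, the receptor higher in BAT than in iWAT (by 1.11), measured 6.37 to 9.15 FPKM in BAT, 1.48 to 5.97 in iWAT and 10.5 to 14.9 in eWAT. It was lower in iWAT than in eWAT by -1.82 (limma adjusted p = 0.0322), a call lost in 13 of 17 alternatives. Among 3 tested genes of the R-spondin module, which amplifies Wnt signals, the receptor Lgr6 measured 4.62, 1.96 and 4.88 FPKM in BAT and did not exceed 0.708 FPKM in the white libraries. Lgr6 was higher in BAT than in iWAT by 1.80 and than in eWAT by 1.87 (limma adjusted p = 0.000821 and 0.000874), and it kept both calls in each alternative run. It reached 1 FPKM in the 3 BAT libraries alone, so it passed the filter only through the depot where it was high.

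Of 15 tested genes of the cytoplasmic relay, 2 were higher and 5 lower in BAT than in iWAT, where 34.5% and 22.9% of all tested genes were. The kinase gene Gsk3a measured 57.7 to 68.3 FPKM in BAT against 18.2 to 23.5 in white fat, higher by 1.48 against iWAT and 1.61 against eWAT. The scaffold gene Axin1 was the other higher one, by 0.72. Csnk1d was lower in BAT than in iWAT by -1.43, and the beta-catenin inhibitor Ctnnbip1 was lower than in eWAT by -1.02, a call that ended without BAT 2, BAT 3, eWAT 2 or eWAT 3 and with no filter (limma adjusted p = 0.0590). Nuclear factors were lower in BAT than in iWAT in 8 of 9 tested genes, beside 22.9% of all tested genes. The median log2 difference of the 9 was -1.27, beside 0.23 for all tested genes. Of the 8, Tcf7 reached 1 FPKM in iWAT 2, iWAT 3 and eWAT 2 alone, so it passed the filter through white libraries. Tcf7l2, a DNA-binding partner of beta-catenin, differed by -2.00 (SE 0.39) and the coactivator Bcl9l by -2.04 (SE 0.37). Against eWAT 4 of 9 were lower, beside 13.5% of all tested genes, Tcf7l2 by -1.50 and Bcl9l by -1.15. Both of these calls ended without BAT 2, eWAT 2 or eWAT 3, and that of Bcl9l also without BAT 1 or BAT 3 and with no filter (limma adjusted p = 0.0787).

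Of 6 tested feedback and target genes, 4 were lower in BAT than in iWAT, beside 22.9% of all tested genes. Among the 4 was Tcf7, already counted with the nuclear factors. Myc differed by -2.13 and the cyclin Ccnd1 by -1.54. Axin2, the widely used reporter of canonical signalling, ranged over 3.22 to 4.00 FPKM in BAT, 1.72 to 2.19 in iWAT and 3.69 to 7.93 in eWAT (limma adjusted p = 0.0548 for BAT against iWAT); it is named outside the rule for named genes. Apcdd1, a membrane inhibitor of Wnt induced by the pathway, measured 0.757, 1.22 and 0.955 FPKM in BAT against 21.5, 16.4 and 21.3 in eWAT (log2 scale: -3.39, SE 0.43, limma adjusted p = 0.00023). That call held in all 17 alternatives. In iWAT Apcdd1 was at 10.1, 1.61 and 3.20 FPKM, lower than in eWAT by -2.05 (limma adjusted p = 0.0456), which was lost in 15 of 17. Myc was lower in BAT than in eWAT by -1.35 (limma adjusted p = 0.0488), a call lost in 10 of 17. The CCN relatives of Wisp2 were far above it: Cyr61 was at 7.58 to 19.1 FPKM in BAT and 38.8 to 85.9 in iWAT (-2.45), and Ctgf at 1.33 to 3.93 and 11.9 to 35.9 (-2.58). Against eWAT Cyr61 was lower in BAT by -1.60, a call that ended without BAT 2, BAT 3, eWAT 2 or eWAT 3 and with no filter (limma adjusted p = 0.0746).

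Depth ran beside these pathway differences. Of the 23 pathway genes lower in BAT than in iWAT, 21 had their lowest eWAT value in eWAT 1, the deep library. The same held for 37 of the 48 pathway genes tested and for 51.4% of all tested genes. These backgrounds cover genes of either direction. The share among all tested genes lower in BAT than in iWAT was not counted, so the 21 of 23 has no like background. Tcf7l2, for instance, was at 11.8 FPKM in eWAT 1 and at 28.1 and 26.7 in eWAT 2 and 3. Of the 23, Apcdd1 and the nuclear factor Tle3 did not have their lowest eWAT value in eWAT 1. Neither did Fzd4, which was higher in BAT than in iWAT. The part of depth in these differences was not tested.

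**Figure D5:**
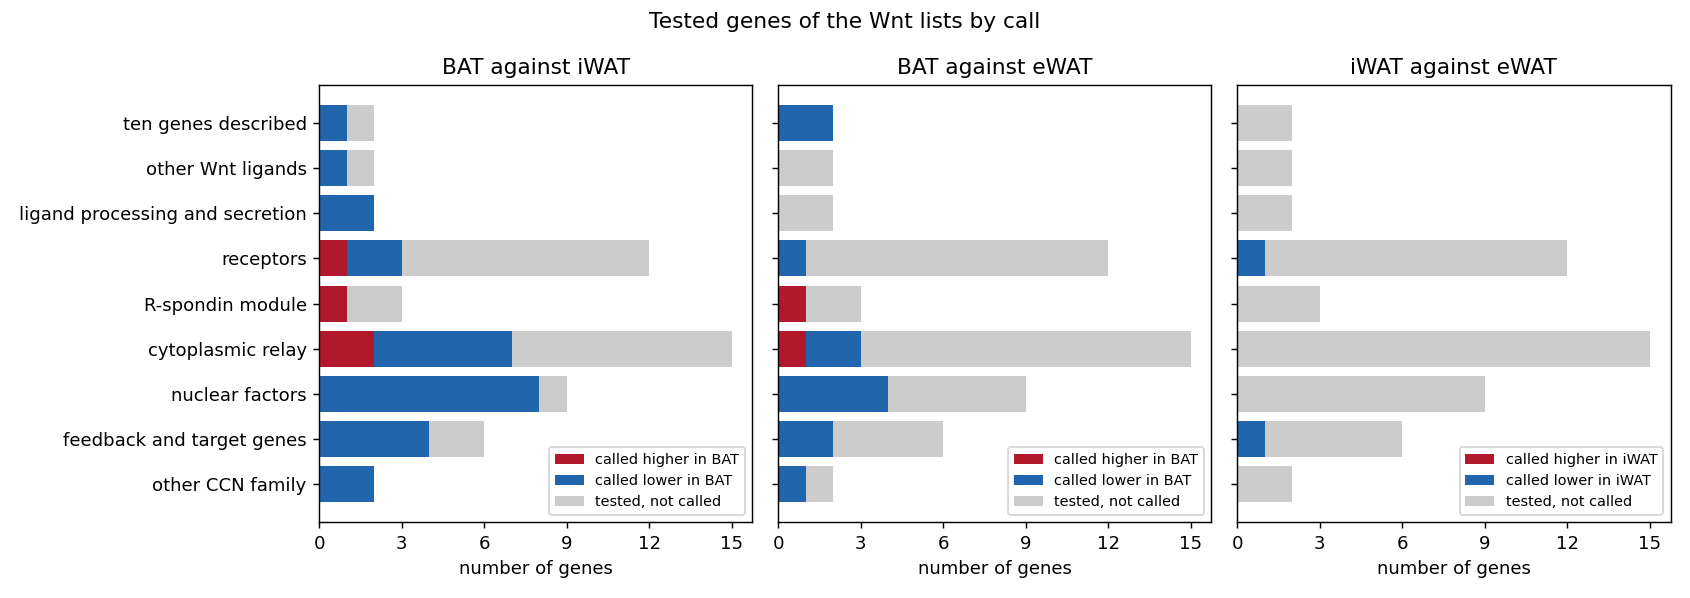
Number of tested genes per list called higher (red), called lower (blue) or not called (grey) by limma at an adjusted p of 0.05, for each pair of depots, with the first depot named giving the direction. Nuclear factors are lower in BAT than in iWAT in 8 of 9 genes, beside 22.9% of all tested genes, and few genes are called between iWAT and eWAT. Tcf7 is drawn both with the nuclear factors and with the feedback and target genes. The list of other secreted antagonists had no tested gene and is not drawn.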

How the data were processed

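Reads were aligned with TopHat and quantified with Cufflinks against mouse build mm9, per the submitters' processing notes (versions, annotation, filters and strand settings are not given in the sources used here). RNA from the anti-GFP pull-down was depleted of ribosomal RNA and sequenced as single-end libraries, per the labels' protocols. The deposited values were read as FPKM: the header names no unit, and Cufflinks and fractional values with unequal sums are the grounds.

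Where a symbol had several lines (259 symbols), that of the highest mean represents it. The log2(FPKM + 1) values were fitted by limma 3.58.1 under R 4.3.3 (empirical Bayes with an intensity trend, 3 group means over all 9 libraries). The 10374 genes reaching 1 FPKM in 3 or more libraries entered the test. P-values were adjusted over all of these by Benjamini-Hochberg and called at 0.05. The script was tested on simulated data. Groups follow the titles.

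Depth was estimated from single-transcript genes of GENCODE vM1 (same assembly as mm9) with a length offset of 200 bases. Of the low values used, 43.4% (eWAT 1) to 62.8% lay within 0.15 of a whole read number, so read numbers are approximate and cover counting only. The depth of eWAT 1 is thus the least certain, since every other library had a share of 51.9% or more.

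Named genes were the 10 genes, up to 2 called genes with the largest change per pathway list and comparison, ligands that passed the filter, and the 3 genes most like each tested member; stromal, epithelial and other cell markers were taken from lists as well. The genes and lists were chosen with earlier results of these data known. Same-number libraries of iWAT and eWAT deviated together (r = 0.634, 0.534 and 0.165), and those of unlike number had r of -0.576 to 0.228. The numbers may thus pair them, on the grounds of the data alone. These r values depend on each other, and iWAT 1 and eWAT 1 were also the deepest of their depots. Same-number libraries of BAT and iWAT did not deviate together (-0.324, -0.225 and 0.121), nor those of BAT and eWAT (-0.388, -0.202 and 0.103). The main fit used no pairing. Alternatives were another pseudocount, other filters and scalings, each pair of depots alone, the replicate number as a block, each library left out and, chosen after seeing the data, eWAT 2 and 3 left out together.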

Additional observations from a re-analysis of the deposited data

How the results depend on the processing

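The fit without eWAT 2 and 3, which leaves 1 eWAT library, is set aside here except where it is named. Of the called differences of Sfrp1 and Sfrp5, 2 of 3 kept their call and direction in every other alternative that could be run. These were Sfrp1 against iWAT and Sfrp5 against eWAT, each for BAT. No difference of the 2 genes changed sign. The number of the 10 genes called between BAT and iWAT was 1, became 3 without a filter (Sfrp1, Wnt11 and Sfrp2, the last at an adjusted p of 0.0323 from at most 3.5 estimated reads a library), and was 1 to 2 with single libraries left out. Between BAT and eWAT it was 2, and became 1 with a pseudocount of 0.1, 1 with a filter at a mean of 5 FPKM (which leaves out Sfrp5), and 1 to 2 with single libraries left out. Without a filter it was 2 (Sfrp5 and Wisp2), with Sfrp1 at an adjusted p of 0.115, and Wisp2 (adjusted p = 0.0403) rests on a few reads. Between iWAT and eWAT none of the 10 was called in any alternative.

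Over all genes, 5961 were called between BAT and iWAT (3783 with the filter at 5 FPKM), 3492 between BAT and eWAT (2244 with that filter, 1427 without eWAT 2 and 3) and 180 between iWAT and eWAT. The last count became 90 with a pseudocount of 0.1, 93 without a filter, 79 with the filter at 5 FPKM, 116 with median-ratio scaling, 28 with those 2 depots alone, 44 without eWAT 2 and 3, and 50 to 3321 with single libraries left out: each of the 9 moved it by over 1.5 times, to 3321 without iWAT 1 and to 50 to 101 without any other. Quantile normalization split the BAT against iWAT calls into 2936 higher and 2851 lower, where 3583 and 2378 were found, and the split between iWAT and eWAT moved from 24 and 156 to 42 and 99. For that pair median-ratio scaling gave 33 and 83. The replicate block gave 6080, 3625 and 221 calls in the 3 comparisons. It changed no call of Sfrp1 or Sfrp5, and of the 30 differences of other pathway genes fitted under it, it changed that of Wnt5a between BAT and iWAT. For other pathway genes, the alternatives followed up to 2 called genes with the largest change per list and comparison. Of these 25 called differences, 14 held in every alternative run, the fit without eWAT 2 and 3 included. The remaining called differences of pathway genes were not followed. The low genes are limited by depth, since 1 read in a shallow library is worth more FPKM than in a deep one.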
